A study of Mus musculus with 12 samples.

Results

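The IL-6 family of cytokines and their receptors was followed in primary stroma grown from mouse small intestine. Its members are 10 genes chosen by name: the ligands Il6, Lif, Il11, Osm and Clcf1, and the receptor chains Il6st, Il6ra, Osmr, Lifr and Il11ra1. All 10 were among the 23329 genes listed and all 10 passed the filter on low counts (13038 genes did: CPM, counts scaled to a common library total with TMM normalisation, above 0.5 in every library of at least 1 group). Osm passed through embryonic LPS libraries alone, and each of the other members was above 0.5 CPM in every library of all 4 groups. The stroma came from C57BL6/J embryos at E14.5 (called embryonic here) or from adult mice. It was depleted of epithelium, digested with collagenase and dispase, grown on plastic and used at passage 2 to 3. Cultures received Escherichia coli O111:B4 lipopolysaccharide (LPS) for 6 h, at a concentration the labels give as 10 µg/µl, or the vehicle PBS. Each of the 4 groups (embryonic PBS, embryonic LPS, adult PBS, adult LPS) held 3 poly(A)-selected, strand-specific libraries. The embryonic cultures pooled several embryos, and no cell type was sorted, so that fewer cells of a type and less RNA per cell cannot be told apart.

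The ligands among these members all signal through gp130, the shared receptor chain encoded by Il6st. IL-6 and IL-11 first bind a ligand-specific chain (Il6ra, Il11ra1) and then gather gp130, whereas LIF and oncostatin M join gp130 with a second signalling chain (Lifr or Osmr). JAK kinases on these chains activate STAT3, and SOCS3 is the feedback inhibitor of the complex. In the gut, fibroblasts and myofibroblasts are a known source of IL-6, LIF and IL-11 and respond to oncostatin M, which is made mostly by myeloid cells. LPS acts through TLR4 and NF-kB, a known activator of Il6.

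The libraries held 18850224 to 32672370 counts in genes, at which 3 counts correspond to 0.0907 to 0.145 CPM. This floor covers counting error only. Fibroblast and myofibroblast markers summed to between 20563 and 42687 CPM in the 12 libraries, and lymphoid markers to 0.165 CPM at most. The cultures were not pure. The 13 macrophage markers summed to between 145 and 2157 CPM in embryonic libraries and between 9.03 and 104 CPM in adult ones. The 6 endothelial markers reached 1723 and 1793 CPM in adult libraries numbered 2, against 14.1 and 20.0 in those numbered 1. The adult libraries numbered 2 also held the lowest fibroblast and myofibroblast sums of their stage, 23335.2 and 24600.5 CPM. Libraries of the same stage and number deviated together, with correlations of 0.610 to 0.849, so each LPS library was also compared with the PBS library of its own number (a replicate block within stage). Results are from edgeR's quasi-likelihood test on all 12 libraries without that block, adjusted by Benjamini-Hochberg over all 13038 genes. "Rose" and "fell" mean an adjusted p under 0.05, and the value with the block is given where it changes the call.

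The starts of 3 ligand genes are shown because, among ligands, Il6 and Lif differed most between LPS and PBS and Il11 did not pass the test at either stage. RefSeq (GRCm38.p6) gave promoter windows for 8 of the 10 members, 11 windows in all, and none for Osm and Clcf1. The 250 bases before each start were searched on both strands for the NF-kB consensus, the AP-1 motif TGANTCA, the C/EBP motif TTNNGNAAT, the cyclic AMP element TGACGTCA and the STAT motif TTCNNNGAA. Il6 lies on chromosome 5 (start 30013114, end 30019975) and its window is chr5:30012864-30013113, plus strand. Lif lies on chromosome 11 (start 4257568, end 4272514) and its window is chr11:4257318-4257567, plus strand. Il11 lies on chromosome 7 (start 4772373, end 4782907), and the window shown is that of its second annotated start, chr7:4778142-4778391, minus strand. Capitals mark the matches.
Il6: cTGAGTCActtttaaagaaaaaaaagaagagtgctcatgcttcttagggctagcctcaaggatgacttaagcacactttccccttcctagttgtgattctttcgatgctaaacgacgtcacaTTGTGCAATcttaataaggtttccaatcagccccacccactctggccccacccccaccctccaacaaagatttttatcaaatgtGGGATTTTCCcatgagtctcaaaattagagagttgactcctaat
Lif: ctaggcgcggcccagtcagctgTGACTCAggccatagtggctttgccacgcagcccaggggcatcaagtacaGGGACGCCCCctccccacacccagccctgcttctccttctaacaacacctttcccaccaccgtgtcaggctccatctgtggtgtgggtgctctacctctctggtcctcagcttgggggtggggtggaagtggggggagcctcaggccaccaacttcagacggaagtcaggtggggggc
Il11: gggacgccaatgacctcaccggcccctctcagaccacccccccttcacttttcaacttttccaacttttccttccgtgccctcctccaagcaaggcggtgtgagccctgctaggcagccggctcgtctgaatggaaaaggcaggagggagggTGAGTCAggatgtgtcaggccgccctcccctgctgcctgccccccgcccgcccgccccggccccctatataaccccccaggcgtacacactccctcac

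The Il6 window held an AP-1 motif (bases -249 to -243 from the start), a C/EBP motif (-128 to -120) and an NF-kB consensus (-44 to -35). The Lif window held an AP-1 motif (-228 to -222) and an NF-kB consensus (-178 to -169). Of the others, only the second Il11 window had a match, an AP-1 motif (-98 to -92), and the windows of the 5 receptor genes had none. Among 32851 windows of all genes, 7.25% held the NF-kB consensus, 6.75% the AP-1 motif, 10.2% the C/EBP motif, 1.55% the cyclic AMP element and 7.02% the STAT motif. A match describes these letters only.

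**Figure D1:**
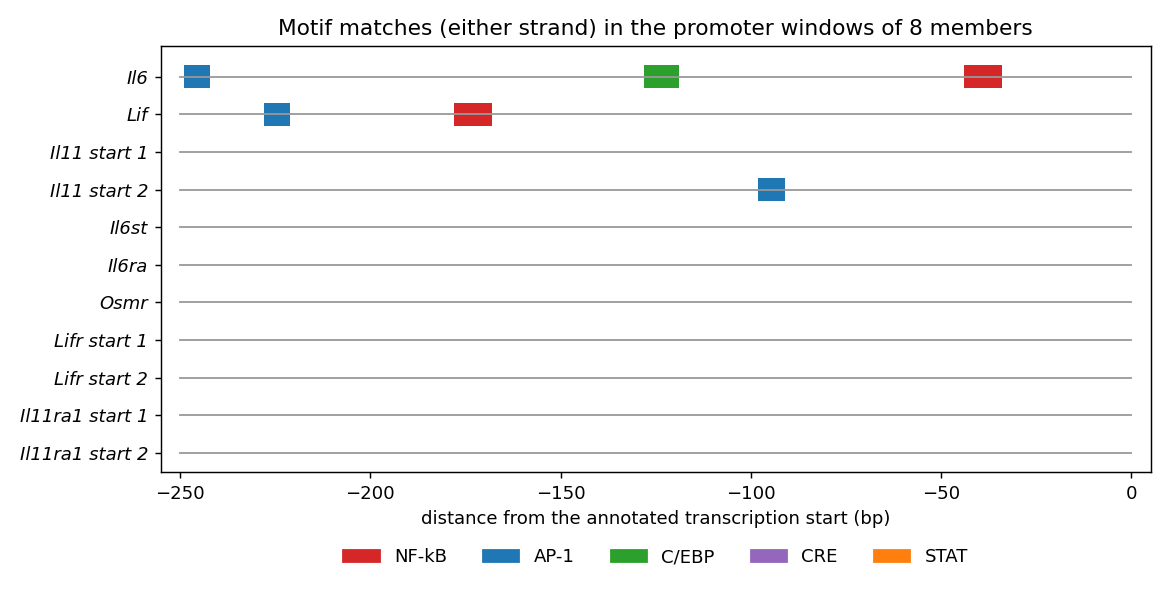
Position of motif matches in the 250 bases before the annotated start of 8 members (x axis, bp from the start; 1 line per start). Il6 and Lif are the only windows with an NF-kB match, and no window held a cyclic AMP or STAT motif.

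The question of the first comparison was which members LPS moved in embryonic stroma. Of the 10 members, 2 rose, Il6 and Osmr, and 0 fell, where 2.67% of all genes tested rose and 2.75% changed in either direction. With the block, 5 of the 9 members other than Osm rose (Il6, Lif, Clcf1, Il6st and Osmr), where 9.43% of all genes rose and 12.5% changed, and 0 fell. These 5 were also higher with LPS in all 3 same-numbered pairs, as 19.7% of all genes were. Osm is left out of this count, because it was among the genes tested only through its level in the embryonic LPS libraries. In adult stroma 0 of the 10 members passed the quasi-likelihood test without the block (0.606% of all genes passed in either direction and 0.598% rose). The likelihood ratio test and DESeq2 each called 2 (Il6 and Lif), where 1.91% and 2.25% of all genes changed. With the block 4 rose (Il6, Lif, Il6st and Osmr), where 4.69% of all genes rose and 6.2% changed, and 0 fell; these 4 were the members higher in all 3 adult pairs, as 22.6% of all genes were. Without the adult cultures numbered 2, 1 member (Lif) passed with the block, where 3.45% of all genes changed. Whatever the number, 4 members (Il6, Lif, Il6st and Osmr) were higher in each LPS library than in each PBS library in embryonic stroma (6.94% of all genes) and the same 4 in adult stroma (8.74%).

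**Figure D2:**
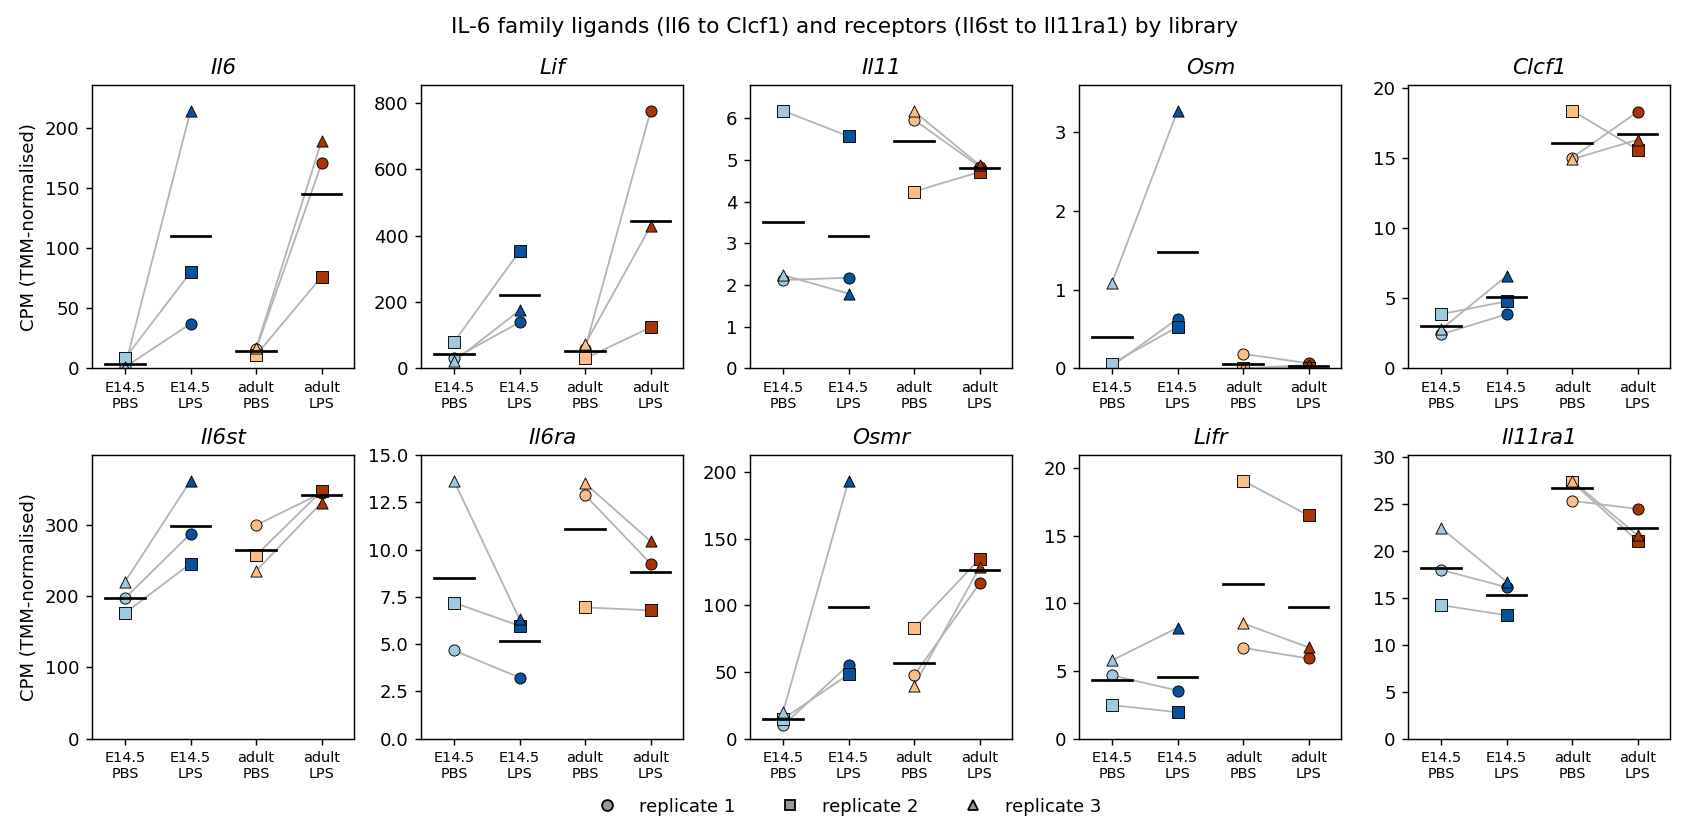
CPM of each member (y axis, linear from 0) in every library, by group (x axis), with bars at the group means and lines joining the PBS and LPS libraries of one number. Il6, Lif, Il6st and Osmr are higher in each LPS library than in each PBS library of the same stage, and Clcf1 is lower in each embryonic than in each adult library.

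Il6, the founding ligand and a driver of the acute phase response, stood at 1.06, 8.32 and 1.24 CPM in embryonic PBS libraries 1, 2 and 3, and at 37.2, 79.9 and 214 CPM in the embryonic LPS libraries of the same numbers. In adult stroma the levels were 16.1, 11 and 16.7 CPM with PBS and 171, 76.3 and 189 CPM with LPS. The groups did not overlap at either stage, and the lowest LPS library held more than the highest PBS library. With LPS, embryonic libraries 1, 2 and 3 stood in the order of their macrophage marker sums, 145, 724 and 1527 CPM. With PBS they did not: library 2 held the most Il6 and library 3 the highest sum. The part of macrophages in the Il6 level was not tested. Il6 rose in embryonic stroma by 4.98 ± 0.93 on the log2 scale (SE, n = 3 per group, 31.5-fold, edgeR adjusted p = 0.0196). In adult stroma the difference was 3.32 ± 0.86 (adjusted p = 0.175), which passed with the block (3.26 ± 0.57, adjusted p = 0.015). The embryonic call was lost without embryonic PBS library 1 (4.53, adjusted p = 0.0841) or library 3 (4.57, adjusted p = 0.0677), and the difference was 6.61 without library 2, which held the highest Il6 of the PBS libraries. The call was also lost without the embryonic cultures numbered 3, PBS and LPS, although Il6 passed there with the block.

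Lif, the leukemia inhibitory factor, is a ligand of the LIFR and gp130 pair. It stood at 30.0, 79.5 and 21.2 CPM in embryonic PBS libraries and at 139, 353 and 175 CPM with LPS. In adult stroma the levels were 59.2, 29.9 and 72.6 CPM with PBS and 777, 124 and 429 CPM with LPS. The groups did not overlap at either stage, and the adult library numbered 2 was the lowest of its group under both treatments. The difference was 2.39 ± 0.72 in embryonic stroma (adjusted p = 0.152) and 3.05 ± 0.74 in adult stroma (adjusted p = 0.141). Both passed with the block, at 2.49 ± 0.31 (adjusted p = 0.00159) and 2.79 ± 0.31 (adjusted p = 0.00195).

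Osm encodes oncostatin M. Its counts were 1, 2 and 36 in embryonic PBS libraries and 18, 16 and 84 in embryonic LPS libraries, or 0.0303, 0.0609 and 1.09 CPM against 0.632, 0.527 and 3.28 CPM. Embryonic libraries numbered 3 held the most Osm under both treatments, and PBS library 3 lay above LPS libraries 1 and 2, so that the groups overlapped. The log2 difference was 1.91 ± 1.22 without the block and 2.23 ± 0.52 with it. No test of it is given, since Osm passed the filter through the embryonic LPS group alone. Adult libraries held between 0 and 5 counts, at or near the floor, and no fold is given there. The same libraries numbered 3 held the highest macrophage marker sums, 2157 CPM with PBS and 1527 CPM with LPS, against 197 and 145 CPM for number 1 and 317 and 724 CPM for number 2. Within pairs 1 and 3 the marker sum was lower with LPS while Osm was higher, and in pair 2 both were higher. The markers did not move together: with the block 3 of the 13 rose with LPS (Ptprc, Emr1 and Fcgr1) and 1 fell (Cx3cr1). Of all genes 9.43% rose and 12.5% changed. The sum is thus not a plain measure of macrophage number. The part of macrophages in the Osm level was not tested.

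Il11, a ligand linked to tissue repair and fibrosis, was at 2.12, 6.18 and 2.24 CPM in embryonic PBS libraries and 2.18, 5.57 and 1.79 CPM in embryonic LPS libraries. Adult levels were 5.96, 4.24 and 6.17 CPM with PBS and 4.84, 4.71 and 4.87 CPM with LPS. The groups overlapped at both stages, and the differences of -0.10 ± 0.51 and -0.17 ± 0.50 did not pass (adjusted p = 0.999 and 1). The embryonic libraries numbered 2, highest in Il11 of their stage, also held the highest mesothelial marker sums of their stage, 445 and 345 CPM against 109 to 122 CPM in the others. They also had the highest epithelial sums of their groups (32.4 and 18.4 CPM) and the lowest fibroblast and myofibroblast sums (31515 and 20563 CPM). In adult stroma libraries numbered 1 had the highest mesothelial sums (980 and 1039 CPM), and those numbered 3 the most Il11. The part of these cell types was not tested.

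Clcf1 encodes a ligand that acts on the CNTF receptor. It was at 2.42, 3.87 and 2.78 CPM in embryonic PBS libraries and 3.86, 4.78 and 6.59 CPM with LPS, groups that overlapped because PBS library 2 lay just above LPS library 1. The difference was 0.77 ± 0.24 (adjusted p = 0.157), and 0.76 ± 0.20 with the block (adjusted p = 0.0404). That call was lost without either the embryonic cultures numbered 3 or the adult cultures numbered 2 (adjusted p = 0.192 and 0.0653). In adult stroma the levels were 15.0, 18.4 and 14.9 CPM with PBS and 18.3, 15.6 and 16.3 CPM with LPS, which overlapped (0.06 ± 0.23, adjusted p = 1).

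Among the receptors, Osmr, which pairs with gp130 to bind oncostatin M, moved most. It was at 9.81, 14.6 and 19.9 CPM in embryonic PBS libraries and at 55.2, 48.1 and 193 CPM with LPS. Adult levels were 47.5, 82.8 and 39.7 CPM with PBS and 116, 135 and 129 CPM with LPS. The groups did not overlap at either stage, and embryonic LPS library 3 stood above the rest. That library also held the highest macrophage marker sum of its group, 1527 CPM. Libraries 1 and 2 of the group, with sums of 145 and 724 CPM, stood in the other order for Osmr. The part of macrophages in the Osmr level was not tested. Osmr rose in embryonic stroma by 2.76 ± 0.53 (6.77-fold, adjusted p = 0.0211). The call was lost without embryonic PBS library 1 (2.52, adjusted p = 0.120) or library 2 (2.76, adjusted p = 0.0741), and the difference was 1.82 without embryonic LPS library 3, which still passed (adjusted p = 0.0271). In adult stroma the difference was 1.17 ± 0.50 (adjusted p = 0.817) and passed with the block (1.24 ± 0.27, adjusted p = 0.0370). Adult libraries numbered 2, with the high endothelial sums, held the most Osmr of their groups under PBS and under LPS. The part of endothelial cells in the Osmr level was not tested.

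Il6st, the shared gp130 chain, was at 197, 176 and 220 CPM in embryonic PBS libraries and 287, 245 and 362 CPM with LPS. In adult stroma it was at 299, 257 and 235 CPM with PBS and 344, 347 and 331 CPM with LPS. The groups did not overlap at either stage. The differences were 0.62 ± 0.15 (adjusted p = 0.0553) and 0.38 ± 0.15 (adjusted p = 0.636), and both passed with the block (0.61 ± 0.08, adjusted p = 0.00196, and 0.39 ± 0.08, adjusted p = 0.0288).

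Il6ra, the chain that binds IL-6 itself, was at 4.66, 7.19 and 13.6 CPM in embryonic PBS libraries and 3.23, 5.97 and 6.32 CPM with LPS. In adult stroma it was at 12.9, 6.94 and 13.5 CPM with PBS and 9.26, 6.78 and 10.4 CPM with LPS. Each LPS library was below the PBS library of its number, in 3 of 3 pairs at both stages, as 22.7% of all genes were in embryonic and 26.6% in adult stroma. The groups overlapped, and the differences did not pass with or without the block (-0.68 ± 0.42, adjusted p = 0.727, and with the block -0.62 ± 0.19, adjusted p = 0.0724, in embryonic stroma; -0.32 ± 0.42, adjusted p = 1, and with the block -0.29 ± 0.18, adjusted p = 0.486, in adult stroma). The highest embryonic level came from PBS library 3, the library with the highest macrophage marker sum. The adult libraries numbered 2 held both the lowest Il6ra and the lowest macrophage sums, 10.2 and 9.03 CPM, whereas those numbered 3 reached 13.5 and 10.4 CPM of Il6ra beside sums of 27.9 and 30.2 CPM. The part of macrophages in the Il6ra level was not tested.

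Lifr, the signalling chain for LIF, was at 4.66, 2.47 and 5.78 CPM in embryonic PBS libraries and 3.54, 1.94 and 8.19 CPM with LPS. Adult levels were 6.70, 19.0 and 8.51 CPM with PBS and 5.91, 16.5 and 6.73 CPM with LPS. Groups overlapped within each stage and the differences did not pass (0.10 ± 0.61 and -0.22 ± 0.61, adjusted p = 0.999 and 1). Adult libraries numbered 2 were the highest of all, beside the endothelial sums of 1793 and 1723 CPM. The part of endothelial cells was not tested.

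Il11ra1, the chain that binds IL-11, was at 18, 14.2 and 22.4 CPM in embryonic PBS libraries and 16.1, 13.1 and 16.7 CPM with LPS. In adult stroma it was at 25.3, 27.3 and 27.4 CPM with PBS and 24.4, 21.0 and 21.6 CPM with LPS. The adult groups did not overlap, the LPS libraries being lower, as for 5.83% of all genes; the difference of -0.25 ± 0.16 did not pass (adjusted p = 1). The mouse genome holds near-identical copies of this gene, and reads shared with them were left out by the unique mapping, so its level is uncertain. Its copy Il11ra2 was at 0 counts in every library.

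**Figure D3:**
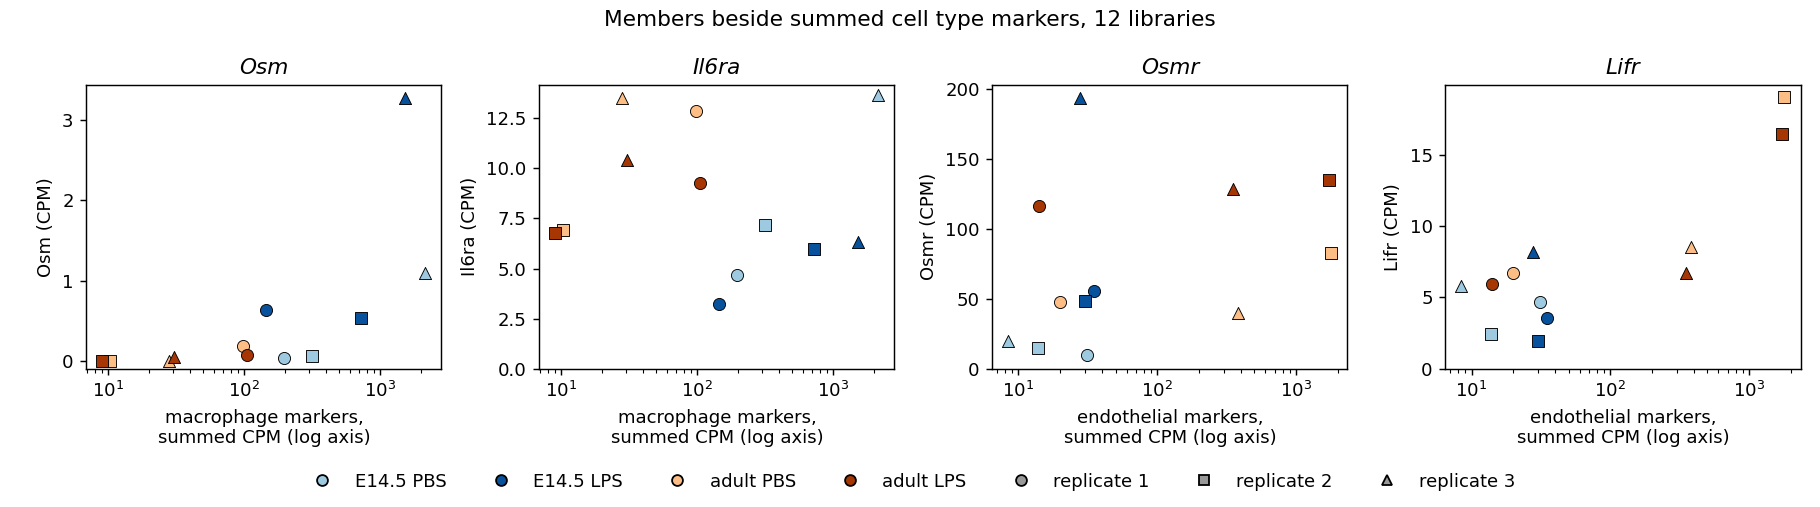
CPM of Osm, Il6ra, Osmr and Lifr (y axes) against the summed CPM of macrophage or endothelial markers (x axes, log scale) in the 12 libraries; colours mark the groups and shapes the replicate number. Osm was highest in the 2 embryonic libraries numbered 3, where the macrophage sum was 2157 and 1527 CPM, and Lifr in the 2 adult libraries numbered 2.

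The second question was whether the response to LPS differed between the stages. The interaction (embryonic minus adult difference) passed for 0 of 10 members in the quasi-likelihood test, where 0% of all genes passed. It passed for 0 with the likelihood ratio test and DESeq2 too, where 0.192% of all genes passed with each. In the quasi-likelihood test the value for Osmr was 1.59 ± 0.71 (adjusted p = 1). With the block the interaction passed for 0 members, where 0.844% of all genes passed. Osmr then had the smallest unadjusted p (1.30 ± 0.39, adjusted p = 0.334), followed by Clcf1 (0.70 ± 0.26, adjusted p = 0.473). For Il6 the interaction with the block was 1.79 ± 0.84 (adjusted p = 0.612) and for Lif -0.30 ± 0.42 (adjusted p = 0.908). No member was shown to respond in one stage more than in the other.

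**Figure D4:**
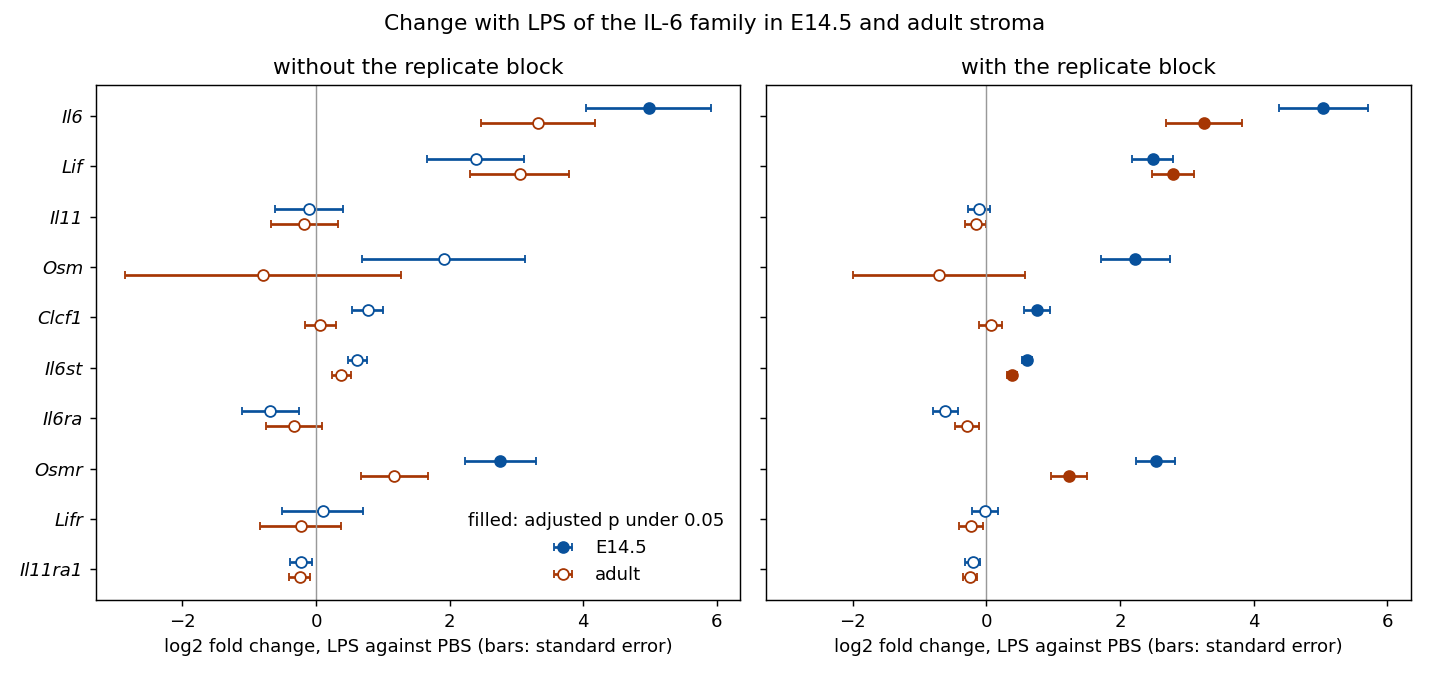
Log2 fold change, LPS against PBS (x axis), with its standard error, for each member in embryonic (E14.5) and adult stroma, without and with the replicate block; filled points have an adjusted p under 0.05. Il6 and Osmr pass in embryonic stroma without the block. With it, Il6, Lif, Clcf1, Il6st and Osmr pass in embryonic stroma and 4 members in adult stroma. The filled Osm point is not read as a test, since the filter kept Osm through embryonic LPS libraries alone.

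Between the stages, 1 member differed. Clcf1 was lower in embryonic than in adult stroma under PBS, by 2.41 ± 0.24 on the log2 scale (5.31-fold, adjusted p = 0.00113), and under LPS, by 1.70 ± 0.24 (3.26-fold, adjusted p = 0.00620). No embryonic library reached an adult one: the highest embryonic value, 6.59 CPM, lay below the lowest adult value, 14.9 CPM. This was 1 of 10 members in each comparison, where 4.08% of all genes differed under PBS (2.57% lower in embryonic stroma) and 5.31% under LPS (2.27% lower). The call under PBS kept an adjusted p of 0.00110 to 0.00720 when any 1 library was left out, and that under LPS one of 0.00503 to 0.0284. Culture and stage are nested, so no block within stage can be used here.

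The other members did not pass between stages, although 6 of the 10 did not overlap under PBS, all lower in embryonic stroma, where 12% of all genes were lower without overlap. These were Il6 (-2.04 ± 0.83, adjusted p = 0.207), Clcf1, Il6st (-0.42 ± 0.15, adjusted p = 0.135), Osmr (-1.94 ± 0.51, adjusted p = 0.0641), Lifr (-1.41 ± 0.62, adjusted p = 0.240) and Il11ra1 (-0.55 ± 0.16, adjusted p = 0.0843). Under LPS, Clcf1, Il6ra and Il11ra1 were lower without overlap (12.8% of all genes). Osm was at 0.527 to 3.28 CPM in embryonic and 0 to 0.0650 CPM in adult LPS libraries, an order that the filter itself favours. Il6 and Osmr, apart under PBS, overlapped between stages under LPS, at -0.38 ± 0.78 and -0.35 ± 0.49. The study describes 3 cultures per stage, so the comparisons under PBS and under LPS are of the same cultures.

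Per length (CPM per kb of the longest RefSeq-linked transcript in GENCODE vM21), the levels of the members can be ranked. With PBS, Il6st led in both stages, at 22.8 ± 2.53 CPM per kb (SD, n = 3) in embryonic and 30.4 ± 3.77 in adult stroma. In adult PBS libraries Lif (13.4 ± 5.42), Il11ra1 (13.3 ± 0.595), Il6 (12.8 ± 2.75) and Osmr (10.3 ± 4.18) followed, neighbours that did not differ beyond their spread, then Clcf1 (8.72 ± 1.06), Il11 (2.80 ± 0.542), Il6ra (1.29 ± 0.419), Lifr (1.18 ± 0.691) and Osm (0.0270 ± 0.0468). In embryonic PBS libraries Lif (10.8 ± 7.80) and Il11ra1 (9.05 ± 2.05) came next after Il6st, and Il6 (3.10 ± 3.63), Osmr (2.69 ± 0.917), Il11 (1.80 ± 1.19) and Clcf1 (1.64 ± 0.408) overlapped one another. With LPS, Il6 and Lif had the highest means of all members, 96.8 ± 81.1 and 55.2 ± 28.5 CPM per kb in embryonic and 127 ± 53.1 and 110 ± 81.2 in adult stroma, although their ranges overlapped each other at both stages. The ranges of both also overlapped that of Il6st in embryonic stroma, and that of Lif did so in adult stroma, so the order is one of means. Among receptor chains the order with LPS was Il6st (34.3 ± 6.78 embryonic, 39.3 ± 0.994 adult), Osmr (18 ± 14.9 and 23.1 ± 1.70), Il11ra1 (7.62 ± 0.954 and 11.1 ± 0.909), and then Il6ra and Lifr, which were between 0.201 and 1.71 CPM per kb in every LPS library.

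**Figure D5:**
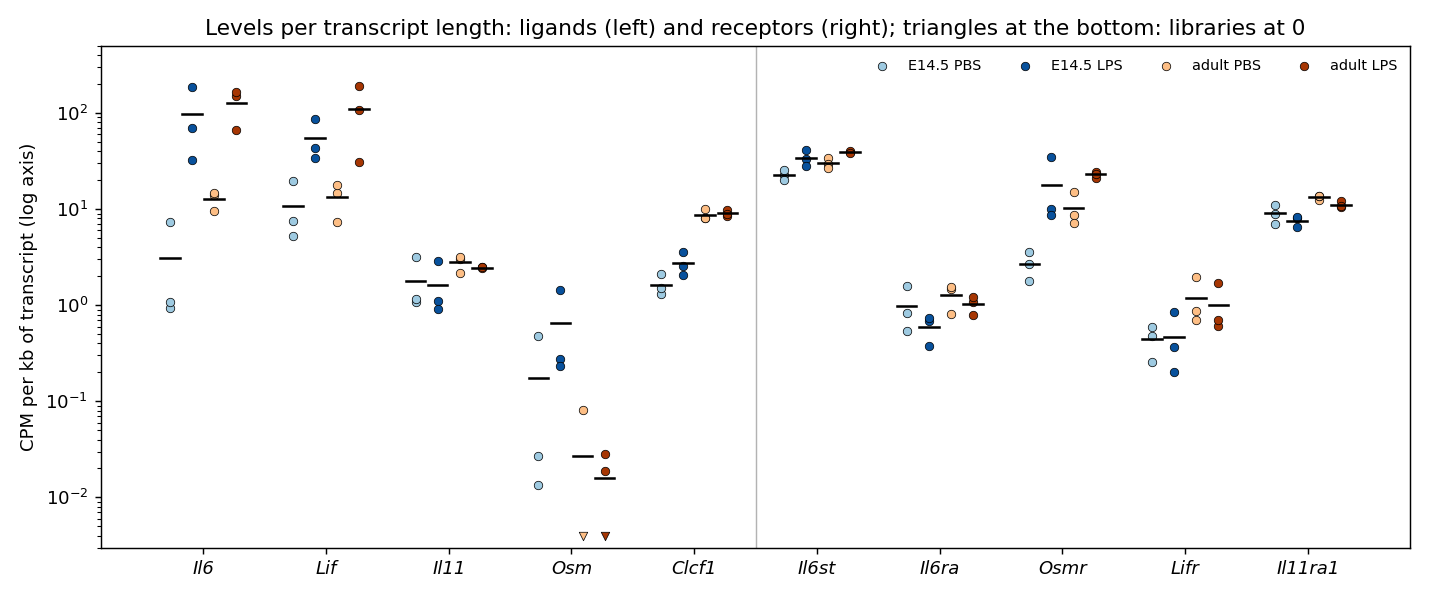
CPM per kb of transcript (y axis, log scale) for each member, by group; points are libraries, bars are means of 3, and triangles at the bottom mark groups with libraries at 0. Il6 and Lif have the highest means with LPS, with ranges that overlap Il6st except for Il6 in adult stroma, Il6st has the highest mean of the receptor chains in every group, and Osm is the lowest ligand.

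On the chromosomes, Osm and Lif are neighbours on chromosome 11, 16541 bp apart, and Osmr and Lifr lie 215641 bp apart on chromosome 15. Lif and Osm, and Osmr and Lifr, thus sit side by side but differed in level, Lif standing at 21.2 CPM or above in every library and Osm at 3.28 CPM or below, and Lifr showing no called response where Osmr rose in embryonic stroma.

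The genes most like Il6 across the 12 libraries, by root mean square difference of centred log2 CPM, were Vcam1 (0.67), Icam1 (0.92), Il15ra (0.96), Tnfaip2 (0.99) and Ptx3 (1.00), where Il6 itself ranged over 7.57. Those most like Lif were Cd44 (0.62), Sdc4, Abtb2, A130040M12Rik and Relb (0.70 to 0.72), over a Lif range of 5.19. Those most like Osm were Ccdc88b (0.52), Rnf180, Ctsc, Slamf9 and H2-T24 (0.68 to 0.74), over an Osm range of 5.59. Those most like Il11, which ranged over 1.75, were Hcn2, Sc4mol, Sc5d, Hsd17b7 and Tmc6 (0.18 to 0.21). All share the same libraries and cultures. Vcam1, an adhesion molecule, was at 12.2, 55.9 and 21.7 CPM in embryonic PBS and 442, 473 and 951 CPM in embryonic LPS libraries, and at 93.9, 188 and 121 CPM in adult PBS and 1638, 1618 and 1913 CPM in adult LPS libraries. Its log2 differences between LPS and PBS were 4.40 ± 0.58 and 3.69 ± 0.56. No test of them is given, since Vcam1 was picked for its likeness to Il6 over these same libraries.

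The genes that carry the signal moved as follows. Of 12 relay genes (JAKs, STATs and adaptors), 1 rose in embryonic stroma, Jak2 (1.74 ± 0.37, adjusted p = 0.0351), and 0 in adult stroma. Of all genes, 2.67% and 0.598% rose. The medians were 0.12 and 0.09 beside -0.00027 and -0.0075 over all genes. With the block 3 rose in embryonic stroma (Jak1 and Tyk2 as well) and 3 in adult stroma (Jak2, Tyk2 and Stat5a). Of all genes, 9.43% and 4.69% rose with the block. The interaction passed for 0 of the 12 with or without the block. Stat3, the main STAT of the family, did not pass in either stage (0.44 ± 0.23, adjusted p = 0.587, and 0.09 ± 0.23, adjusted p = 1).

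Of 9 inhibitors of the relay, 2 rose in embryonic stroma, Socs3 and Socs1, and 0 in adult stroma, where 2.67% and 0.598% of all genes rose. With the block 4 (also Cish and Ptpn2) and 2 (Cish and Ptpn2) rose, where 9.43% and 4.69% of all genes did. Socs3 was at 1.88, 1.61 and 3.66 CPM in embryonic PBS and 22.2, 81.6 and 254 CPM in embryonic LPS libraries, a rise of 5.66 ± 0.93 (adjusted p = 0.0107). In adult stroma it was at 2.91, 4.68 and 3.38 CPM with PBS and 27.4, 5.79 and 13.1 CPM with LPS (2.09 ± 0.81, adjusted p = 0.648). Socs1 rose in embryonic stroma by 4.66 ± 0.66 (adjusted p = 0.00598). The interaction passed for 0 of the 9 inhibitors with or without the block, so no difference in response between the stages was shown for them. Of the 2 sheddases of IL-6 receptor, Adam10 and Adam17, 0 passed at either stage without the block. Adam17 rose in embryonic stroma with it (0.64 ± 0.08, adjusted p = 0.00196), and the interaction passed for 0 of the 2.

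Of 11 factors known to act on Il6 transcription or mRNA, 7 rose in embryonic stroma (Nfkb1, Rel, Rela, Nfkbiz, Cebpd, Arid5a and Zc3h12a). In adult stroma 4 did (Nfkb1, Rela, Nfkbiz and Zc3h12a). The medians were 1.89 and 0.98, and 2.67% and 0.598% of all genes rose. With the block, 9 and 6 rose, where 9.43% and 4.69% of all genes did. The interaction passed for 0 of the 11 with or without the block. Nfkbiz, an activator of secondary NF-kB targets such as Il6, rose from 15.1, 20.8 and 12.8 to 144, 251 and 465 CPM in embryonic stroma (4.16 ± 0.43, adjusted p = 0.00162) and from 18.6, 17.6 and 15.5 to 193, 101 and 148 CPM in adult stroma (3.11 ± 0.41, adjusted p = 0.0101). Zc3h12a, which encodes the RNase regnase-1 that degrades Il6 mRNA, rose at both stages (3.92 ± 0.45, adjusted p = 0.00227, and 3.83 ± 0.44, adjusted p = 0.00683).

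Of 16 genes known to be induced by STAT3 downstream of gp130, 6 rose in embryonic stroma (Socs3, Bcl3, Junb, Cebpd, Saa3 and Steap4). In adult stroma 0 rose. Of all genes, 2.67% and 0.598% rose. The interaction without the block passed for 0 of the 16. With the block 11 rose in embryonic and 9 in adult stroma, where 9.43% and 4.69% of all genes rose. The 11 and the 9 include Lcn2, which passed the filter on low counts through LPS libraries and not through PBS libraries. Medians were 1.17 at both stages. Several of these genes, such as Bcl3 and Junb, are also known to respond to LPS through other routes. Saa3, an acute phase gene, was at 0.0303, 1.31 and 0.333 CPM in embryonic PBS libraries and at 15.9, 37.8 and 150 CPM with LPS; in adult stroma it was at 47.1, 107 and 30.3 CPM with PBS and 179, 447 and 138 CPM with LPS. Saa3 and Steap4 were lower in embryonic than adult stroma under PBS (adjusted p = 0.0167 and 0.0115), and their interactions passed with the block only (4.67 ± 0.69, adjusted p = 0.0275, and 4.82 ± 0.71, adjusted p = 0.0262). Steap4 had 5 counts or fewer in each embryonic PBS library, so the size of its interaction is uncertain.

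Of 10 further family members, 5 passed the filter. Cntfr, a receptor chain on which CLCF1 acts, was higher in embryonic stroma under PBS (3.44 to 13.6 against 0.773 to 1.06 CPM, 3.10 ± 0.59, adjusted p = 0.0209) and LPS (2.93 ± 0.59, adjusted p = 0.0233). Il27, a subunit of IL-27, was at 0, 0 and 0.0907 CPM in embryonic PBS libraries and 6.88, 40.3 and 127 CPM with LPS. In adult stroma it was at 0 CPM in every PBS library and 1.56, 0.616 and 1.21 CPM with LPS. Its partner Ebi3 was at 0.363, 0.701 and 3.75 CPM in embryonic PBS and 5.61, 16.8 and 73.5 CPM in embryonic LPS libraries, and at 0.184, 0 and 0.0345 against 0.650, 0.216 and 0.216 CPM in adult ones. Tests of LPS against PBS are not given for Il27 and Ebi3, because each passed the filter on low counts through LPS libraries and not through PBS libraries. The macrophage marker sums followed the same order of the embryonic LPS libraries, 145, 724 and 1527 CPM, and their part was not tested.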

How the data were processed

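Poly(A)-selected RNA (12 libraries) was sequenced as single reads of 75 bases. The authors trimmed the reads, mapped them to GRCm38.p6 with STAR (also named in the submitters' processing notes, with mm10), kept uniquely mapped reads and deposited raw counts per gene, without normalization. The counts on the strand of the library chemistry were used; the opposite strand held 1.15% to 2.02%, and reads assigned to no gene, 8.69% to 9.85% of those counted, were left out. They were fitted in R 4.3.3 by edgeR 4.0.16 (TMM, quasi-likelihood, group means model over 12 libraries, Benjamini-Hochberg), limma 3.58.1 and DESeq2 1.42.0 (alternative), and figures drawn in Python 3.11.15 with matplotlib 3.10.9. Log2 CPM used a prior count of 2, and the standard error is the log2 fold change divided by the root of F. Scripts were tested on simulated data (random seed 1).

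Same-numbered LPS and PBS libraries correlated at 0.610 to 0.849 (mean 0.751 embryonic, 0.754 adult), and libraries of different numbers within a stage at 0.0219 or less. The pairing comes from the label numbers and from the 3 cultures per stage (from adult mice or pooled embryos) that the study describes; no source ties a number to a culture. Named genes are the 10 members, up to 3 of the largest called changes of each list, and the 5 genes nearest Il6, Lif, Il11 and Osm; other genes were named after their values were seen. Members and lists were chosen with earlier results of these data known, and 2 genes of the lists are not reported here. P-values without the block measure the spread between libraries of a group in these cultures, taken as independent. Those with the block measure the spread of the difference between LPS and PBS across same-numbered pairs.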

Additional observations from a re-analysis of the deposited data

Results flagged for a closer look

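Among the pathway genes, 2 gave a larger log2 difference between LPS and PBS in embryonic than in adult stroma by edgeR's test of that difference with the replicate block. For Saa3 the excess was 4.67 ± 0.69 (adjusted p = 0.0275) and for Steap4 4.82 ± 0.71 (adjusted p = 0.0262). Without the block the values were 4.87 and 5.00, and neither passed (adjusted p = 1 for each). Steap4, a metalloreductase, was at 0.0303, 0.152 and 0.0302 CPM in embryonic PBS libraries, and at 3.86, 7.98 and 37.3 CPM with LPS. The PBS levels are 5 counts or fewer, near the floor, so the size of the Steap4 excess depends on the fit and is not a usable measure. In adult stroma it was at 8.65, 22.4 and 5.69 CPM with PBS and 50.5, 133 and 66.7 CPM with LPS. With LPS, Steap4 was lower in each embryonic than in each adult library, and Saa3 overlapped between the stages. Saa3 had 1, 43 and 11 counts in the embryonic PBS libraries.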

How the results depend on the processing

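The count of members changed by LPS moved with the fit. The share of all genes tested that changed under the same setting is given in brackets. In embryonic stroma the count was 2 (2.75%) and became 6 (12.5%, Osm included) with the replicate block within stage. It became 4 with each stage fitted alone and blocked (5.63%), 4 with the likelihood ratio test (4.69%) and 4 with DESeq2 (5.25%). Without a block it was 0 with each stage alone (0.0317%) and 0 at an adjusted p under 0.01 (0.913%). After seeing the data, the embryonic cultures numbered 3 (highest macrophage markers) and the adult cultures numbered 2 (highest endothelial markers) were also left out. Without the former the embryonic count was 1 (1.9%), Osmr, so that the Il6 call was lost. With the block it was 5 (7.98%). Without the latter it was 5 with the block (9.3%). Both of these counts of 5 hold Il6, Lif, Il6st and Osmr, and also Osm, which is not read as a test because of the filter. In adult stroma the count was 0 (0.606%) and became 4 with the block (6.2%). It became 1 with each stage alone (1.81%) and 4 with each stage alone and blocked (14.4%). It was 2 with the likelihood ratio test (1.91%) and 2 with DESeq2 (2.25%). With the block it was 4 without embryonic cultures 3 (9.46%) and 1 without adult cultures 2 (3.45%). Between stages under PBS the count was 1 (4.08%) and became 2 with a block across stages (6.83%) and 2 with the likelihood ratio test (9.03%). It was 3 with DESeq2 (11.9%) and 3 without embryonic cultures 3 (3.87%). Under LPS it was 1 (5.31%) and became 2 with the likelihood ratio test (10.4%) and 3 with DESeq2 (13.1%). It was 0 once a log2 change of 2 or more in size was required (2.95%). Osm, kept by the filter through embryonic LPS libraries alone, is among the 2 and the 3. The interaction count was 0 under every alternative run (0% to 0.921%). The cause of these moves was not tested. With 1 library left out at a time, the embryonic LPS count ranged from 0 to 3 (0.726% to 3.59% of all genes). The counts between stages ranged from 1 to 2 under PBS (1.16% to 4.84%) and 1 to 3 under LPS (1.01% to 6.21%). The 3 under LPS included Osm.

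No difference that changed sign had passed the test. For Lifr in embryonic stroma the log2 difference was -0.0199 with the replicate block, -0.0552 with each stage alone and blocked, -0.0795 without TMM factors, -0.37 without embryonic cultures 3 (-0.37 with the block) and -0.0413 without adult cultures 2 with the block; its interaction was -0.14 and -0.13 without embryonic cultures 3. The interaction of Il11 was -0.00099 without TMM factors, and that of Il11ra1 was -0.0761 there and -0.0485 and -0.0317 without adult cultures 2. Between stages under PBS, without embryonic cultures 3, Lif was at 0.0192 and Osm at -0.46, where Osm was 2.53 with all libraries. With 1 library left out the ranges crossed 0 for Il11 (-0.83 to 0.60), Lifr (-0.64 to 0.45) and their interactions (-0.65 to 0.78 and -0.40 to 0.94), for Lifr (-0.85 to 0.37), Osm (-1.58 to 3.19) and Clcf1 (-0.0081 to 0.17) in adult stroma, for the interactions of Il11ra1 (-0.12 to 0.20), Il6ra (-0.68 to 0.15), Lif (-1.21 to 0.12) and Osm (-1.28 to 5.68), and between stages for Lif (-1.08 to 0.0288) and Osm (-0.45 to 6.52) under PBS and Il6 (-1.31 to 0.0286) under LPS. The block within stage cannot be fitted for comparisons between stages. At these depths Osm in adult stroma, at 5 counts or fewer, gives no usable fold.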

Other observations

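Of the family members outside the 10, several were low or varied by culture. Il31ra, the receptor chain for IL-31, was at 8.89 and 12.7 CPM in the embryonic PBS and LPS libraries numbered 2 and between 0.173 and 1.58 CPM in the other 10 libraries. Il27ra, the receptor chain for IL-27, was at 2.75 and 4.35 CPM in the adult PBS and LPS libraries numbered 2, which held the highest endothelial marker sums, and between 0.0368 and 1.38 CPM elsewhere. Ctf1, which encodes cardiotrophin-1, stood between 1.13 and 7.02 CPM. Il31 had 1 count at most in any library, and Ctf2 and Il11ra2 had 0 counts throughout.

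Of the 10 fibroblast and myofibroblast markers, 1 differed between stages under PBS, where 4.08% of all genes differed. Pdgfra, a receptor of platelet-derived growth factor, was lower in embryonic stroma (2.39 to 4.36 against 28.6 to 78.6 CPM, -3.72 ± 0.55, adjusted p = 0.00686 in edgeR), while the median difference of the 10 was -0.24.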
